A study of Mus musculus with 9 samples.

Results

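The resting state of mouse bone marrow-derived macrophages was read from the 3 libraries that received bovine serum albumin (BSA), out of 9 libraries in a series that also holds macrophages given the chemokines CX3CL1 or CCL26. BSA serves in such designs as a protein control that carries no chemokine. The BSA libraries were chosen by their treatment label alone, and no comparison with the chemokine groups was made. Marrow of wild-type C57BL/6 mice aged 6 weeks was grown for 7 days in DMEM with 15% supernatant of L929 cells, a fibroblast line that secretes the macrophage growth factor CSF1, and BSA was then present at 4 nM for 4 h. All groups of the series share this culture, so "resting" here means cultured, CSF1-fed and BSA-exposed. Nothing in the labels ties the 3 replicates to different animals or dishes, and the spread between them may be technical.

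Macrophages engulf particles and dying cells, degrade them in acidified lysosomes, and sense microbes through pattern receptors such as the Toll-like receptors (TLRs). Their survival and identity depend on the CSF1 receptor and on the transcription factor PU.1, encoded by Spi1. Inflammatory cytokine genes are typically kept low until a pattern receptor is engaged, whereas lysosomal and phagocytic genes are expressed constitutively.

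The table held 13593 genes, and the libraries had 19461182, 19599955 and 17684435 counts for replicates 1, 2 and 3. Each of the 3 libraries had 80 to 170 genes without a count and 11370 to 11423 genes at 1 CPM or more (CPM is the count scaled to library size). Counts per gene grow with transcript length. Levels are therefore compared between genes in TPM, which divides each count by the exon length of its gene before scaling. Ranks and list sums in CPM describe where the counts fell, and they also depend on transcript length and, for sums, on list size. The median gene stood at 14.1 TPM, with quartiles at 2.99 and 46.7. Of 13532 genes with a TPM value, 7657 (56.6%) reached 10 TPM, 1714 (12.7%) reached 100 TPM and 139 reached 1000 TPM.

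Lyz2, which encodes the macrophage lysozyme, was the most abundant gene on both scales. It took 451678, 462094 and 419124 counts, or 23179, 23565 and 23742 CPM, and stood at 60726, 61545 and 61491 TPM (mean 61254 ± 458, SD, n = 3). The gene lies on chromosome 10 from 117277331 to 117282321 on the minus strand (GRCm38, GENCODE M21). Lyz1, its neighbour and close relative that is known from Paneth cells of the gut, was chosen after its value was seen and stood at 6.37 TPM with 36, 53 and 44 counts. Reads that fit both genes may have been discarded or divided, so the lower of these values is uncertain.

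The other 3 defining markers were also abundant. Adgre1, which encodes the F4/80 antigen (chromosome 17, 57358691 to 57483527), stood at 3266, 3246 and 3182 TPM and ranked 21. Cd68, a lysosomal membrane glycoprotein (chromosome 11, 69664213 to 69666153), stood at 1891, 1901 and 1800 TPM and ranked 48. Csf1r, the receptor through which CSF1 acts, stood at 747, 751 and 750 TPM and ranked 190. The label of the cells therefore matched their markers, each of which exceeded the 100 TPM that 12.7% of all genes reached.

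After Lyz2, the list of most counted genes was led by iron storage, lysosomal, translation and actin genes. Fth1, the ferritin heavy chain, had a mean of 12626 CPM, and Ctsb, the lysosomal protease cathepsin B, had 10466 CPM. Eef1a1, a translation elongation factor, had 9105 CPM, and Psap, the precursor of the saposins that help degrade sphingolipids, had 7882 CPM. The mitochondrial cytochrome oxidase gene mt-Co1 (7025 CPM), the actin-sequestering peptide gene Tmsb4x (6233 CPM) and the beta-actin gene Actb (5069 CPM) followed. The first 10 ended with CT010467.1, annotated as ribosomal RNA (3994 CPM), and Sqstm1, the autophagy receptor p62 (3846 CPM).

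Ranks 11 to 25 by CPM held, in order, Eef2, Prdx1, Adgre1, Pkm, Hspa8, Ctsd, Gapdh, Grn, Eif4g2, Sirpa, Slc38a2, Lcp1, Slc13a3, Gpnmb and Mpeg1. They fell from 3681 CPM for Eef2, an elongation factor, to 2165 CPM for Mpeg1, the gene of the pore-forming protein perforin-2. Sirpa, the inhibitory receptor for CD47, had 2344 CPM. Gpnmb, a glycoprotein of lysosomes, had 2169 CPM.

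Scaling by length brought up genes with short transcripts. B2m, the light chain of MHC class I, ranked 7 by TPM with 7001, 7317 and 7463 TPM. Spp1, the secreted phosphoprotein osteopontin, ranked 11 at 4304 ± 88.4 TPM (SD, n = 3), and the galectin gene Lgals1 ranked 16 at 3771 TPM. The 25 highest by TPM also took in the complement gene C1qb (3541 TPM), the cathepsin gene Ctsz (3628 TPM), the ribosomal protein genes Rplp1, Rplp0 and Rps3a1, mt-Cytb, mt-Nd1, and Fcer1g (2762 TPM), the signalling chain shared by Fc receptors. Some neighbours in the order could not be separated: mt-Co1 had 15914, 15725 and 15168 TPM and Tmsb4x 15804, 15391 and 15603 TPM, so their ranges overlapped. Eef1a1 (12408 to 12629 TPM) and Fth1 (12331 to 12593 TPM) overlapped as well.

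**Figure D1:**
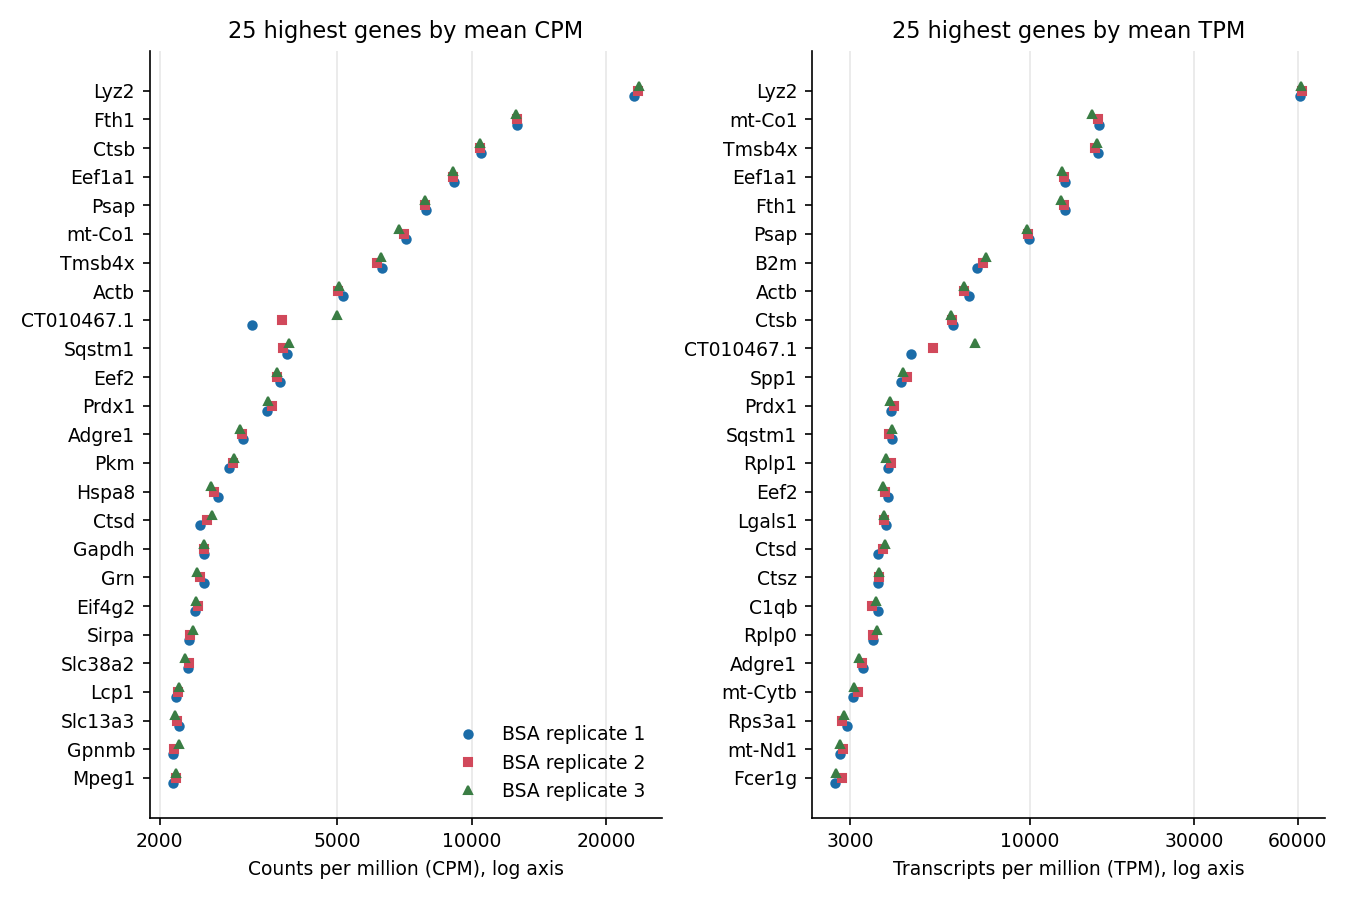
The 25 highest genes by mean CPM (left) and by mean TPM (right), each on a log axis, with 1 symbol per BSA library. Symbols of a gene nearly coincide except for CT010467.1, whose CPM ran from 3225 in replicate 1 to 5005 in replicate 3.

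The counts were spread over many genes. Lyz2 alone took 2.32%, 2.36% and 2.37% of the counts, the 10 most counted genes took 8.99 ± 0.0639% and the 100 most counted took 22.8 ± 0.0528% (SD, n = 3). To reach 50% of the counts took 682, 681 and 678 genes, and 90% took 4415, 4412 and 4409. Protein-coding genes held 98.7% to 98.96% of the counts in each library, and the 15 mitochondrially encoded genes held 1.15% to 1.18%.

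The promoters of the most abundant genes were searched for the TATA box, the element that positions RNA polymerase II at some strongly transcribed genes. RefSeq promoters (GRCm38.p6) were matched by symbol for 72 of the 100 genes with the highest TPM, which gave 83 promoters. The letters TATAAA, on the gene's strand and starting 40 to 20 bases before the start site, were found in 4 of these 83 (4.82%). The share was 1.13% of the 12670 promoters matched to 9973 genes of the table, and 1.99% of all 32851 promoters searched. The 4 belong to Prdx1, a peroxide-reducing enzyme, H2-D1, a class I heavy chain, Cxcr4, the CXCL12 receptor, and Vim, the intermediate filament vimentin. They are shown because each carries the element at this position. The 60 bases before each start site are given from 5′ to 3′ on the gene's strand, with the matched letters in capitals:
Prdx1 (chr4:116685539-116685598, plus strand): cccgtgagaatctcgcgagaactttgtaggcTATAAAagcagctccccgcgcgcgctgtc
H2-D1 (chr17:35263034-35263093, plus strand): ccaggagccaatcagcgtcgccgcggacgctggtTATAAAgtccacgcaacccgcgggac
Cxcr4 (chr1:128592300-128592359, minus strand): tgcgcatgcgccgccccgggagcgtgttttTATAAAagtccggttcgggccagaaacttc
Vim (chr2:13574251-13574310, plus strand): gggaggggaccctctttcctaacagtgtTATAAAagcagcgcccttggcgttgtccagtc

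A wider search took in both strands from 250 bases before to 50 after the start. TATAAA was found in 21.7% of the 83 promoters, 7.32% of the 12670 of genes in the table and 13.6% of all 32851. GAGGAAGT, a core sequence bound by PU.1, was found in 6.02%, 3.44% and 3.20% of the same sets on either strand. Overlap between matches of these motifs was not tested. A match is a description of the letters and not a measured binding site.

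The machinery of lysosomal degradation was expressed high and as a whole. All 41 members of the cathepsin and lysosome list were present, 33 of them at 100 TPM or more, with a median of 482 TPM against 14.1 TPM over all genes. Psap had 9946, 9842 and 9779 TPM, and Ctsb 5989, 5926 and 5889 TPM. Ctsd (3714 TPM), Ctsz (3628 TPM), Grn (2436 TPM), which encodes progranulin, and the membrane protein gene Lamp1 (2407 TPM) followed, while Ctsk (20.6 TPM), a protease known from osteoclasts, and Ctsf (6.18 TPM) were lowest. The list held 46549, 46451 and 46568 CPM in sum, or 4.65% of the counts.

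The vacuolar proton pump, which acidifies the lysosome, had all 18 members present with a median of 267 TPM, and 16 reached 100 TPM. Atp6ap2 (790 TPM), Atp6v1a (779 TPM), Atp6v1g1 (715 TPM), Atp6v0d1 (700 TPM), Atp6v1b2 (648 TPM) and Atp6ap1 (515 TPM) led it. Atp6v0a2 (24.9 TPM) and Atp6v0d2 (21.5 TPM) were lowest.

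Iron and heme genes had a lower median with a few very abundant members. All 23 were present with a median of 104 TPM, and 13 reached 100 TPM. Fth1 had 12593, 12541 and 12331 TPM, and the light chain gene Ftl1 had 2385, 2637 and 2812 TPM. Ftl1 differed more between the libraries than Fth1 did, with a coefficient of variation of CPM of 8.77% against 0.526%. The cause of this spread was not tested. Ftl1 has many pseudogene copies, and reads that fit several of them may be discarded or divided, so its level is uncertain. Hmox1, the heme-degrading oxygenase, stood at 2603 ± 61.9 TPM, and Slc11a1, the phagosomal metal transporter, at 422 TPM. Cd163, the hemoglobin scavenger receptor (3.003 TPM), and Steap4 (0.0950 TPM) were lowest.

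All 25 members of the NADPH oxidase and antioxidant list were present, 23 of them at 100 TPM or more, with a median of 317 TPM. Prdx1 (3959 TPM) and Hmox1 led it, before the oxidase subunit gene Cyba (1437 TPM), the GTPase gene Rac2 (912 TPM), the glutathione peroxidase gene Gpx1 (857 TPM) and the catalase gene Cat. The lowest were Sod2 (89.0 TPM) and Nqo1 (29.5 TPM).

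The actin, adhesion and motility list had all 41 members present and a median of 501 TPM. Tmsb4x and Actb (6492 TPM) were followed by Arpc2 (1707 TPM), a subunit of the actin-branching complex, Actg1 (1441 TPM), Cfl1 (1426 TPM), which severs filaments, and Pfn1 (1383 TPM). The integrin gene Itga4 (25.5 TPM) and Vcl (18.9 TPM), which links adhesions to actin, were lowest.

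Macrophage surface and identity genes were mostly abundant: all 30 were present with a median of 202 TPM, and 21 reached 100 TPM. The leaders were Lgals3 (2104 TPM), Mpeg1 (1714 TPM), Sirpa (1638 TPM), Marco (1616 TPM), a scavenger receptor, Cd53 (1496 TPM) and the signalling adaptor gene Tyrobp (1304, 1452 and 1511 TPM). The lowest were Axl, a receptor for apoptotic cells (2.61 TPM), and Adgre4 (0.157 TPM). Mertk, a receptor of the same family as Axl chosen after its value was seen, stood at 45.2 TPM.

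Among scavenger and apoptotic cell receptors, 20 of 25 were present with a median of 56.0 TPM. Cd68 and Marco led, then Cd36 (1255 TPM), which takes up oxidised lipoproteins, Stab1 (488 TPM), Gas6 (449 TPM), the bridging ligand of Mertk and Axl, and Msr1 (292 TPM). Itgb3 (1.74 TPM) and Olr1 (0.412 TPM) were lowest.

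The Fc receptor list had 8 of 9 members present. Fcer1g (2716, 2837 and 2731 TPM) and Fcrls (1671 TPM) stood above the antibody-binding receptors themselves: Fcgr3 at 313 TPM, Fcgr4 at 153 TPM, Fcgr1 at 107 TPM and the inhibitory Fcgr2b at 61.7 TPM. Fcgrt, the neonatal receptor that recycles antibody, stood at 88.5 TPM and was uneven, with 107, 78.5 and 80.0 TPM. Trim21 was lowest at 10.9 TPM.

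Of 22 complement genes, 16 were present with a median of 270.1 TPM. The 3 chains of C1q, which starts the classical pathway, stood at 3541 (C1qb), 1352 (C1qa) and 1004 (C1qc) TPM. Cfp, which encodes properdin, stood at 1726 TPM, and Itgb2, the shared chain of the complement-binding integrins, at 1135 TPM. C4b (0.172 TPM) was the lowest of 16 listed members, and the other 6, among them C2 and Cfb, were not among the genes analysed here.

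Of 22 C-type lectin receptors, 16 were present with a median of 63.9 TPM. Clec4a1 (1015 TPM), Clec4d (871 TPM), the mannose receptor gene Mrc1 (531 TPM), Clec4a2 (229 TPM), Clec12a (207 TPM) and Clec4n (176 TPM), which encodes Dectin-2, led. Clec1b (0.680 TPM) and Mgl2 (0.506 TPM) were lowest.

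Pattern sensors at the surface and in endosomes differed widely in level, though several neighbours in the order overlapped. Cd14, the co-receptor that hands lipopolysaccharide to TLR4, led the TLR list at 1245, 1236 and 1216 TPM. The endosomal chaperone gene Unc93b1 had 798, 758 and 782 TPM and the folding factor gene Hsp90b1 had 708, 731 and 727 TPM, close but without overlap. Of the receptors, Tlr7, a sensor of single-stranded RNA, stood at 314, 326 and 310 TPM and Tlr2, a sensor of bacterial lipoproteins, at 304, 306 and 298 TPM. The range of Tlr7 lay above that of Tlr2.

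Next came Cd180 (292 TPM), a TLR-like protein whose range overlapped that of Tlr2, Tlr13 (198 TPM), a sensor of bacterial ribosomal RNA, and Tlr4 (115, 116 and 115 TPM). Tlr8 (54.0 TPM), Tlr1 (50.9 TPM) and Tlr9 (46.1 TPM), the DNA sensor, lay close together: the range of Tlr9, 40.2 to 50.6 TPM, overlapped that of Tlr1, 49.7 to 52.7 TPM. Ly86 (40.4 TPM), the partner of Cd180, and Ly96 (37.6 TPM), the partner of TLR4 better known as MD-2, followed. Ly86 overlapped both Tlr9 and Ly96 in range.

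Tlr6 (13.5 TPM), Tlr3 (5.69 TPM), the sensor of double-stranded RNA, and Tlr5 (0.369, 0.329 and 0.484 TPM), the sensor of flagellin, came last. Tlr11 and Tlr12 were not among the genes analysed here. In all, 16 of 18 members were present, 14 at 10 TPM or more, and their median was 84.6 TPM.

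Downstream of the receptors, all 19 adaptors and kinases were present at a median of 36.6 TPM. Tab2 (167 TPM), Tbk1 (167 TPM), the kinase that activates interferon regulatory factors, Irak3 (123 TPM), a brake on the pathway, and the common adaptor gene Myd88 (109, 92.3 and 97.4 TPM) led. Ikbke (63.8 TPM) and Ticam1 (48.0 TPM), the adaptor of TLR3 and TLR4 also called TRIF, followed, and Tirap (9.83 TPM) and Tab1 (9.09 TPM) were lowest.

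Cytosolic sensors were at moderate levels. Of 15 nucleic acid sensors, 13 were present at a median of 49.0 TPM, from the helicase gene Dhx9 (153 TPM), Samhd1 (143 TPM), which depletes nucleotides, and Lrrfip1 (105 TPM) to the double-stranded RNA sensor gene Ifih1 (14.1 TPM) and Zbp1 (9.23 TPM). The DNA sensor Aim2 stood at 94.1 TPM, Tmem173, which encodes STING, at 61.9 TPM, and the RNA-activated kinase gene Eif2ak2 at 50.1 TPM.

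All 24 inflammasome and NOD-like genes were present at a median of 15.8 TPM. Casp1, the protease that matures interleukin-1 beta, stood at 186, 187 and 201 TPM. Nlrp3 (65.5 TPM), the pore-forming Gsdmd (64.0 TPM), the ATP-gated channel gene P2rx7 (61.1 TPM) and Nek7 (61.0 TPM) lay close together below Ripk2 (90.8 TPM), the kinase of the NOD receptors. Nlrp10 (0.239 TPM) and Naip1 (0.236 TPM) were lowest.

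Chemoattractant receptors ran from above 1000 TPM to near 1 TPM. Cxcr4 led at 1447, 1473 and 1480 TPM and ranked 68 among all genes. The receptors for complement fragments and formyl peptides came next: C3ar1 at 504 ± 15.6, Fpr1 at 316 ± 6.96, C5ar1 at 243 ± 8.92 and Fpr2 at 107 ± 13.3 TPM, with Ptafr, the receptor of platelet-activating factor, at 256 ± 3.96 TPM (SD, n = 3 each). Ptafr and C5ar1 overlapped in range, 252 to 259 against 237 to 253 TPM, and the steps to and from this pair did not.

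The CC chemokine receptors and the receptor for CX3CL1 lay far below. Ccr1 stood at 6.31, 6.56 and 6.75 TPM from 101, 106 and 99 counts. Cx3cr1, the receptor for which the series is titled, stood at 3.81, 5.64 and 4.84 TPM from 97, 145 and 113 counts, a rank of 9317 among 13532 genes. Ccr3 stood at 4.16, 1.39 and 1.95 TPM from 77, 26 and 33 counts, and Ccr2, a receptor of inflammatory monocytes, at 0.968, 1.19 and 1.31 TPM from 37, 46 and 46 counts.

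The Ccr1 values were separate from those of Cx3cr1, whereas the ranges of Cx3cr1 and Ccr3 overlapped. Replicate 1 had more Ccr3 counts than replicates 2 and 3 together, and the 3 libraries differed beyond counting error for this gene (chi-square test of counts, adjusted p = 8.26e-06, a test that 34.6% of all genes tested pass at 0.05). Cx3cr1 also passed that test (adjusted p = 0.0332), with replicate 1 lowest, and Ccr1 did not (adjusted p = 0.893). In the list as a whole, 16 of 23 members were present, 8 of them at 10 TPM or more.

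Of the receptors for cytokines and growth factors, 32 of 35 were present with a median of 36.7 TPM. Csf1r led, before the tumour necrosis factor (TNF) receptors Tnfrsf1b (510 TPM) and Tnfrsf1a (246 TPM), Il10ra (244 TPM), Tgfbr1 (149 TPM) and Il4ra (123 TPM). The ranges of Tnfrsf1a and Il10ra overlapped. Il1rl1, the receptor of interleukin-33 (0.281 TPM), and Flt3, a receptor of dendritic cell precursors (listed at 0 in replicates 1 and 3), were lowest.

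Receptors for lipids, nucleotides and metabolites had no member at 100 TPM. P2rx4 (96.5 TPM), P2ry6 (70.1 TPM), S1pr2 (68.8 TPM), P2rx7, the prostacyclin receptor gene Ptgir (43.3 TPM) and S1pr1 (37.3 TPM) were the highest of 22 listed among 25. P2ry14 (1.31 TPM) and Lpar6 (0.760 TPM) were the lowest.

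Secreted signals were dominated by few genes. Of 55 cytokines and growth factors, 42 were present with a median of 8.77 TPM, below the 14.1 TPM of all genes, and 5 reached 100 TPM: Grn, Mif (657, 604 and 637 TPM), the stress cytokine gene Gdf15 (660, 600 and 605 TPM), Tgfb1 (287 TPM) and Ebi3 (164 TPM), a subunit of interleukin-27 and interleukin-35. Mif and Gdf15 overlapped in range. Vegfb (83.6 TPM) and Tnf (83.1 TPM) came next.

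The classical inflammatory interleukins were low beside Tnf. Il1b stood at 7.51 TPM, Il10 at 6.42 TPM, Il6 at 2.62 TPM, Il12b at 1.69 TPM and Il1a at 0.480 TPM, whereas Il1rn, which encodes the natural antagonist of the interleukin-1 receptor, stood at 48.2 TPM. The lowest listed were Lif (0.380 TPM) and Il7 (0.251 TPM). Ifnb1, Il12a, Il23a and Csf2 were not among the genes analysed here.

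The chemokines were led by CC ligands, which include the monocyte attractants Ccl2 and Ccl7. Ccl3 led at 1295, 1262 and 1245 TPM, before Ccl9 (513 TPM), Ccl4 (366, 417 and 453 TPM), Pf4 (390 TPM), Ccl2 (265 TPM), Ccl7 (241 TPM), Ccl6 (233 TPM) and Ccl12 (141 TPM). Ccl4 and Pf4 overlapped, as did Ccl7 and Ccl6. Cxcl2 (92.7 TPM), a neutrophil attractant, and Cxcl16 (80.1 TPM) followed.

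A gap then separated these from Cxcl14 (12.8 TPM), Cxcl10 (10.4 TPM), an interferon-inducible chemokine, and Cxcl1 (3.97 TPM). Ccl5 was uneven, with 5.34, 1.46 and 1.21 TPM. Cx3cl1 itself stood at 0.697 TPM, and Ccl22 (0.586 TPM) and Ccl27a (0.426 TPM, at 0 in replicate 2) were lowest. In all, 21 of 35 members were present at a median of 12.8 TPM, and Ccl26 was among the 14 not analysed here.

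**Figure D2:**
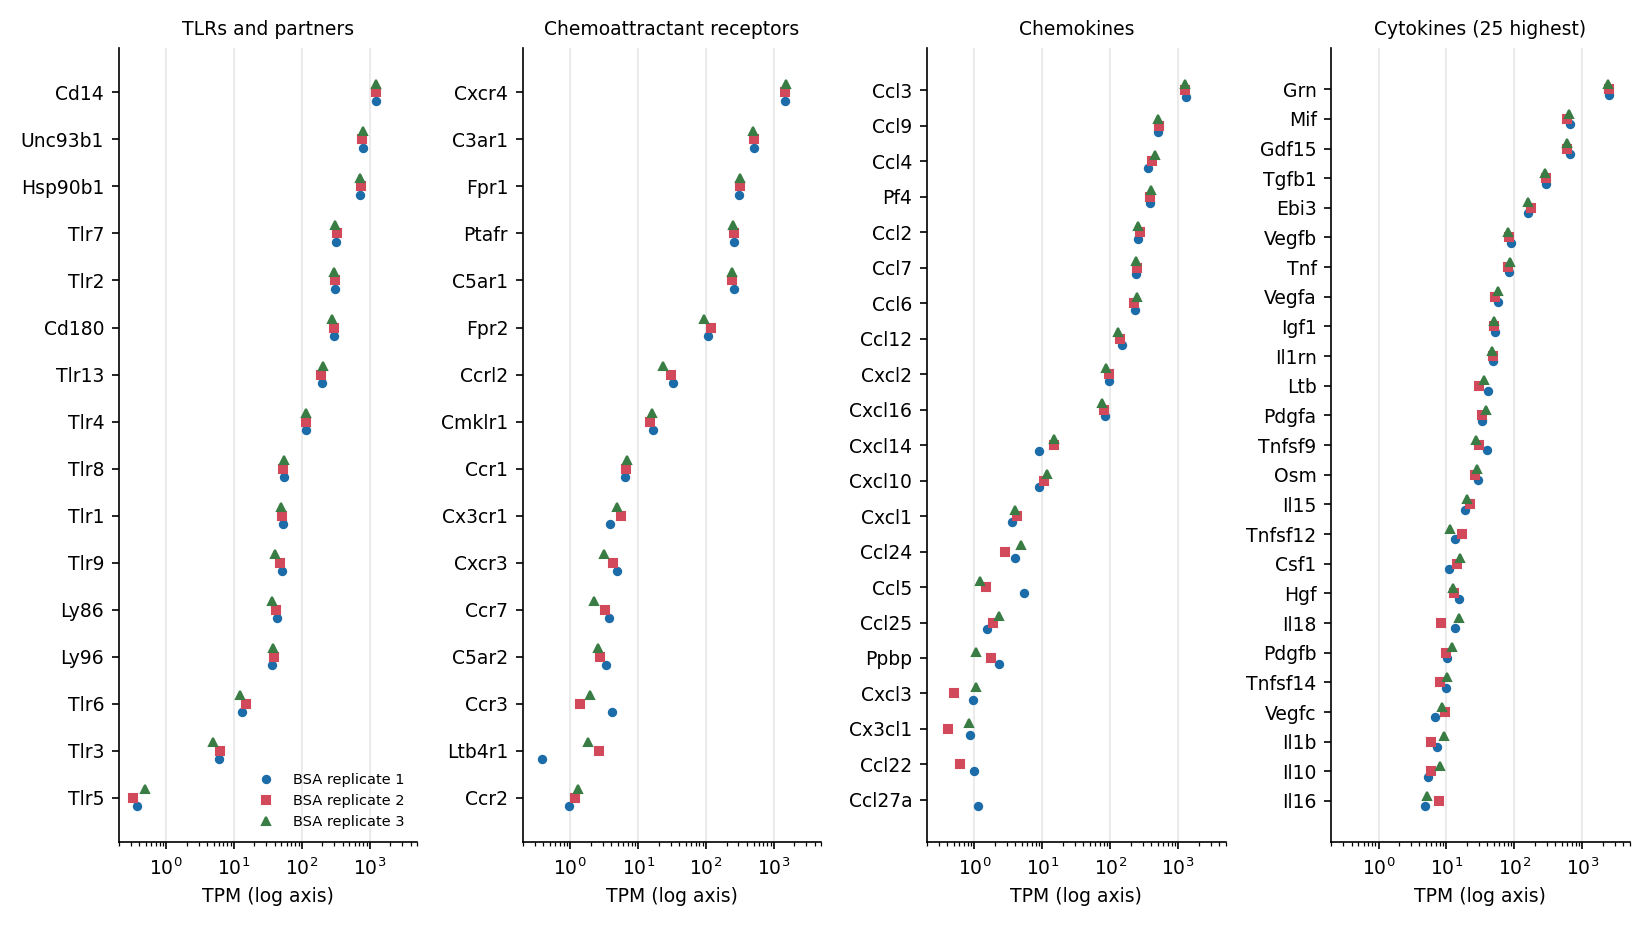
TPM on a log axis for TLRs and their partners, chemoattractant receptors, chemokines and the 25 highest cytokines, with 1 symbol per BSA library. Values under 0.2 TPM are not drawn, which leaves out Ccl22 in replicate 3 and Ccl27a in replicates 2 and 3. Cxcr4 and Ccl3 stand above 1000 TPM, and Ccr1, Cx3cr1, Ccr3 and Ccr2 lie under 10 TPM.

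Transcription factors of myeloid cells were present for all 42 members, at a median of 56.3 TPM. Atf3, a stress-induced factor known to restrain TLR responses, led at 1205, 1204 and 1207 TPM. Spi1 followed at 597, 579 and 625 TPM, then Klf6 (552 TPM), the antioxidant regulator gene Nfe2l2 (524 TPM), Junb (402 TPM) and Ets2 (347 TPM). The immediate-early gene Egr1 (5.61 TPM) and Irf4 (0.833 TPM) were lowest.

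Interferon-stimulated genes were spread widely. All 45 were present at a median of 22.7 TPM, above the 14.1 TPM of all genes, 31 reached 10 TPM and 6 reached 100 TPM: Ifitm3 (2408 TPM), a restriction factor of endosomal virus entry, Bst2 (1158 TPM), which encodes tetherin, Slfn2 (809 TPM), Ifi27l2a (401 TPM), Ifitm2 (285 TPM) and Oas1a (147 TPM). Gbp5 (0.849 TPM) and Iigp1 (0.746 TPM) were lowest. Several of them have close paralogs that can draw reads from one another.

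The alternative activation list had 14 of 21 members present at a median of 3.63 TPM, below the 14.1 TPM of all genes. Mrc1 and Stab1 were high, Il1rn, the transglutaminase gene Tgm2 (32.1 TPM), Chil3 (25.6 TPM) and Clec10a (6.55 TPM) followed, and Mgl2 and Socs2 (0.133 TPM) were lowest. Arg1 and Retnla were not among the genes analysed here.

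Acod1, which makes itaconate in activated macrophages, stood at 148, 147 and 121 TPM. It came after Sat1 (494 TPM), which acetylates polyamines, in a list of arginine, nitric oxide and itaconate enzymes with 14 of 18 present, and before the argininosuccinate synthase gene Ass1 (137 TPM), the polyamine enzyme genes Odc1 (131 TPM) and Srm (90.1 TPM), and the arginine carrier gene Slc7a1 (75.6 TPM). Kynu (0.673 TPM) and Kmo (0.504 TPM), enzymes of tryptophan breakdown, were lowest. Nos2, the inducible nitric oxide synthase gene, was chosen after its value was seen and stood at 2.41 TPM. Replicate 3 was the low library for Acod1.

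Antigen presentation genes covered a wide range. B2m, H2-D1 (2361 TPM) and H2-K1 (1026 TPM) of class I led 22 listed members with a median of 22.0 TPM, before the peptide-loading gene Tapbp (191 TPM), H2-T23 (122 TPM) and the immunoproteasome gene Psmb10 (93.4 TPM). Of the class II pathway, chosen after the values were seen, H2-DMb1 stood at 28.0, Cd74 at 20.4, H2-DMa at 9.49, H2-Ab1 at 3.88, H2-Eb1 at 3.06 and H2-Aa at 1.13 TPM. The class I gene H2-Q7 (1.05 TPM) and H2-Oa (0.597 TPM) were lowest, and Ciita, the class II master regulator, was not among the genes analysed here.

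Costimulatory and checkpoint genes were present for 18 of 19 members at a median of 44.8 TPM. Below Sirpa came Cd48 (539 TPM), Lgals9 (316 TPM), Cd47 (144 TPM), Vsir (136 TPM) and Cd200r1 (112 TPM), and Cd276 (2.27 TPM) and Pdcd1lg2 (0.606 TPM), which encodes PD-L2, were lowest. Among 34 proteases, inhibitors and matrix genes, 33 were present at a median of 38.2 TPM. Spp1 stood above Adam8 (658 TPM), Adam9 (335 TPM), Serpinb6a (267 TPM), Adam17 (265 TPM), the sheddase that releases TNF, and Adam10 (184 TPM). Vcan (0.518 TPM) and Mmp25 (0.356 TPM) were lowest.

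Glycolysis was represented by 27 of 28 members at a median of 54.4 TPM. Gapdh (2089 TPM), Pkm (1994 TPM), Aldoa (1514 TPM), Pgk1 (1368 TPM), Ldha (739 TPM) and Eno1 (660 TPM) led, and Eno2 (3.64 TPM) and Pfkfb2 (2.82 TPM) were lowest. Gapdh was also among the steadiest abundant genes, with 2519, 2520 and 2510 CPM. Slc2a1, the glucose transporter, and Hk2 and Hk3, hexokinases, were chosen after their values were seen and stood at 111, 74.9 and 262 TPM.

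All 10 genes of the pentose phosphate pathway were present at a median of 49.2 TPM. Taldo1 (712 TPM), Pgd (395 TPM), G6pdx (246 TPM), the entry enzyme that makes NADPH, and Tkt (210 TPM) stood above Rpe (51.6 TPM) and Pgls (46.9 TPM). Rpia (12.2 TPM) and Shpk (4.10 TPM) were lowest.

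The list of tricarboxylic acid cycle genes, which also takes in enzymes outside the cycle, had 33 of 33 members present at a median of 105 TPM. Glud1 (406 TPM), which feeds glutamate into the cycle, led Idh1 (352 TPM), Sdhd (290 TPM), Mdh1 (228 TPM), Sdha (207 TPM) and Mdh2 (191 TPM). Me1 (15.5 TPM) and the pyruvate carboxylase gene Pcx (9.24 TPM) were lowest. The 83 nuclear genes of oxidative phosphorylation had a median of 108 TPM, from Cox6a1 (876 TPM), Atp5a1 (773 TPM), Atp5b (770 TPM), Cox4i1 (636 TPM), Cox8a (600.1 TPM) and Cox6b1 (558 TPM) to Dmac2l (2.89 TPM) and Ndufb2 (0.947 TPM).

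Of 34 genes of lipid uptake, storage, efflux and oxidation, 32 were present at a median of 95.8 TPM. Cd36, the lysosomal lipase gene Lipa (850.4 TPM), Apoe (725 TPM), the lipid droplet coat gene Plin2 (608 TPM), Lpl (565 TPM) and the desaturase gene Scd2 (489 TPM) led. Its relative Scd1 stood at 6.03 TPM, and Mgll at 0.787 TPM.

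Cholesterol synthesis was lower, with all 24 members present at a median of 28.9 TPM. Insig1 (282 TPM), which retains the sterol sensor in the endoplasmic reticulum, Srebf2 (99.8 TPM), Mvd (68.7 TPM), Cyp51 (64.8 TPM) and Ebp (51.3 TPM) led. Tm7sf2 (6.65 TPM) and Fdps (1.26, 0.583 and 0.229 TPM) were lowest. Fdps shares 26.7% of its exon bases with another gene of the annotation.

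In the eicosanoid list, 16 of 19 members were present at a median of 32.8 TPM. The phospholipase gene Pla2g15 (335 TPM), Ptges3 (289 TPM), Hpgds (156 TPM), which makes prostaglandin D2, and Pla2g7 (156 TPM) stood above Alox5ap (102, 124 and 142 TPM), the partner of 5-lipoxygenase, and Cbr1 (49.0 TPM). Hpgd (3.66 TPM) and Alox15 (0.701 TPM) were lowest. Alox5ap was lowest in replicate 1 and highest in replicate 3.

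**Figure D3:**
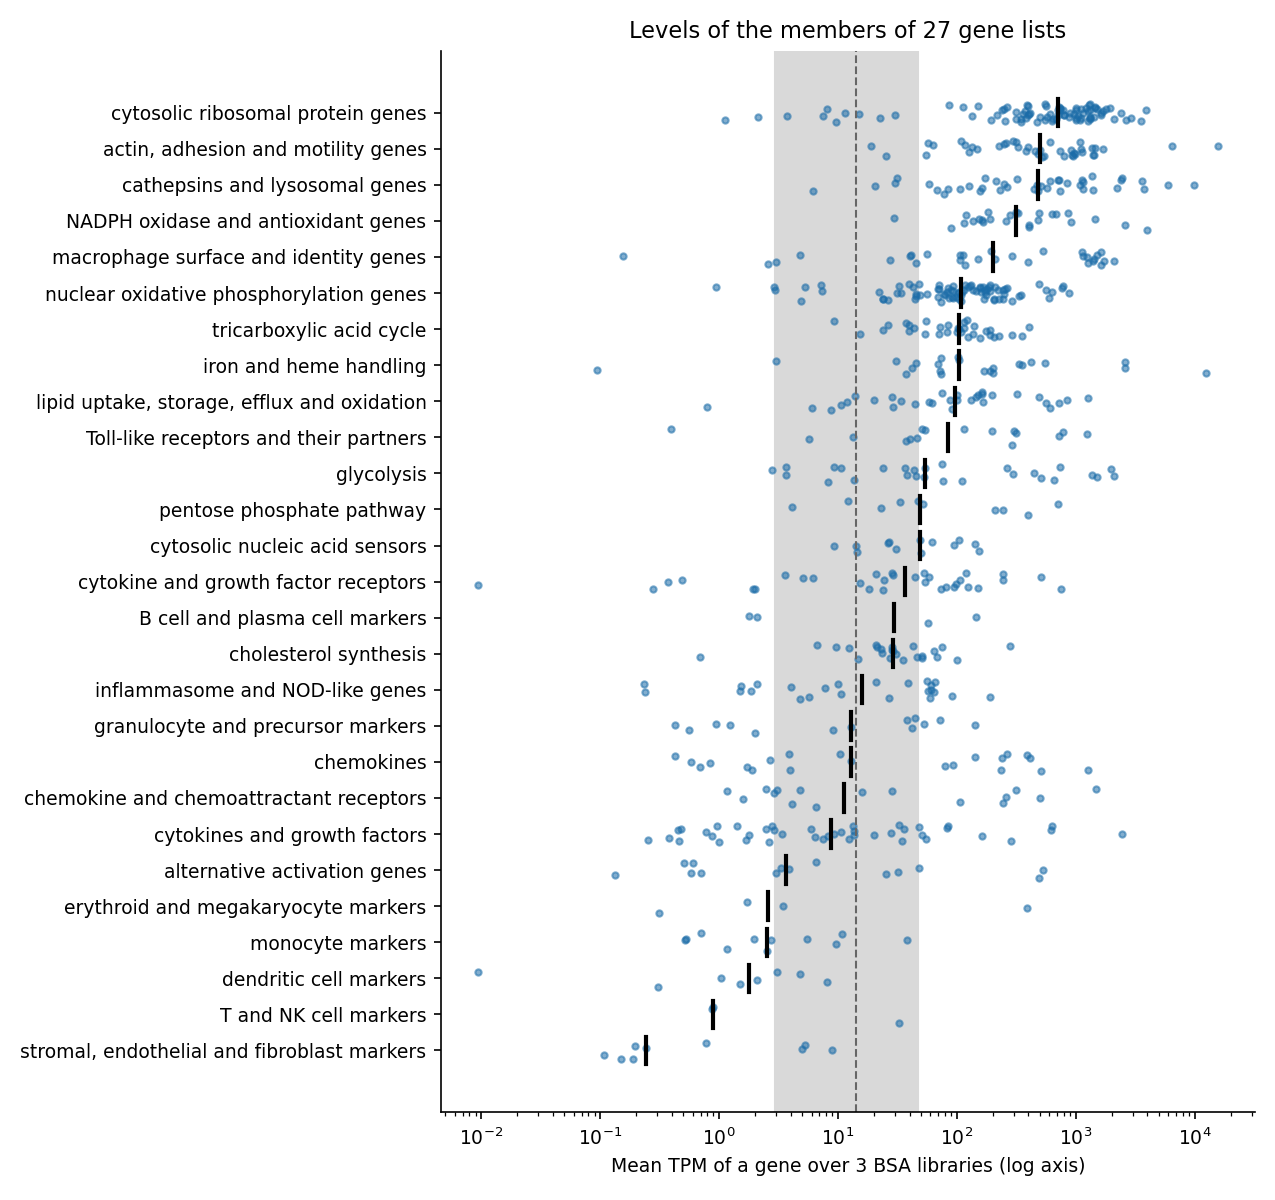
Mean TPM over the 3 BSA libraries (log axis) of the members of 27 gene lists, 1 point per gene, with the list median as a black bar. The grey band spans the quartiles of all genes (2.99 to 46.7 TPM) and the dashed line their median (14.1 TPM). Ribosomal, actin and lysosomal lists lie highest, and monocyte, dendritic, T and NK cell and stromal markers lowest.

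Ribosomal protein genes had a median of 714 TPM over 87 members, and 76 of them reached 100 TPM. Rplp1 (3874 TPM), Rplp0 (3526 TPM), Rps3a1 (2889 TPM), Rps2 (2621 TPM), Rps15 (2414 TPM) and Rpl4 (2100 TPM) led. Their sum was 37637, 38437 and 39181 CPM in replicates 1, 2 and 3. A further 9 members lay under 25 TPM. Of these, Rpl39l, Rpl22l1, Rps3a3, Rpl6l and Rps4l are paralogs or copies of other ribosomal protein genes, and the remaining 4 share over 20% of their exon bases with another annotated gene.

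Among them, chosen after their values were seen, are Rpl24 (1.13 TPM, 47.0% shared), Rps10 (3.75 TPM, 28.7%) and Rpl13a (22.6 TPM, 35.4%). Of the 76 members at 100 TPM or more, 8 share as much. Over protein-coding genes, the median level was 19.9 TPM for 7562 genes that share no exon bases, 17.5 TPM for 2787 that share up to 10%, 12.8 TPM for 1445 that share 10 to 50% and 2.47 TPM for 152 that share over 50%. The part of exon sharing in these low values was not tested.

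The mitochondrially encoded genes, which are cut from long shared transcripts, were uneven around a median of 1069 TPM. mt-Co1 led, before mt-Cytb (3099 TPM), mt-Nd1 (2821 TPM), mt-Nd5 (1578 TPM), the ribosomal RNA gene mt-Rnr1 (1288 TPM) and mt-Nd2 (1239 TPM). The other oxidase subunits, chosen after their values were seen, stood at 341 TPM (mt-Co2) and 344 TPM (mt-Co3), and mt-Nd4l (22.5 TPM) and mt-Nd3 (8.86 TPM) were lowest. Near-identical nuclear copies of mitochondrial sequence may take up reads, so their values are uncertain. The 38 proteasome subunits had a median of 136 TPM, from Psmc1 (442 TPM), Psmd8 (399 TPM), Psma6 (370.4 TPM), Psmd2 (339 TPM), Psmb6 (331 TPM) and Psmb2 (277 TPM) to Psmd9 (16.7 TPM) and Psma8 (0.997 TPM).

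Proliferation genes were present in all 45 cases at a median of 52.3 TPM. Tubb5 (1166 TPM), the replication clamp gene Pcna (583 TPM), Stmn1 (384 TPM), the inhibitor gene Cdkn1a (370 TPM), Mcm3 (173 TPM) and Cdk4 (162 TPM) led, and Cenpf (4.70 TPM) and Ccnd2 (3.08 TPM) were lowest. Mki67 and Top2a, which mark cycling cells and were chosen after their values were seen, stood at 141 and 120 TPM. In bulk RNA, many cells with little of a transcript and few cells with much of it cannot be told apart.

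Markers of tissue-resident macrophages were low. Of 17, 8 were present at a median of 4.87 TPM: Cd5l (72.2 TPM), the microglial P2ry12 (12.8 TPM), Fabp4 (8.84 TPM), Spic (5.19 TPM), Tmem119 (4.56 TPM), Siglecf (3.83 TPM), Hpgd and Folr2 (3.36 TPM). Gata6, Sall1, Clec4f, Timd4, Vsig4 and Lyve1 were among those not analysed here. The summed level of the list was 77.4 to 81.5 CPM.

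Markers of other cells that a marrow culture could hold were summed as well. Granulocyte and precursor markers had 13 of 17 present and 179 to 190.4 CPM in sum, led by S100a9 (142 TPM), S100a8 (72.8 TPM), Lcn2 (52.7 TPM), Csf3r (44.5 TPM), Mmp8 (42.0 TPM) and Ngp (38.4 TPM), with Mpo (0.556 TPM) and Ctsg (0.425 TPM) lowest. Ly6g and Cxcr2 were not among the genes analysed here. Monocyte markers had 11 of 12 present, a sum of 92.3 to 102 CPM and a median of 2.52 TPM, led by F13a1 (38.2 TPM), Hp (10.8 TPM), S100a4 (9.67 TPM), Treml4 (5.49 TPM), Nr4a1 (2.76 TPM) and Ly6c2 (2.52 TPM), with Vcan lowest.

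Dendritic cell markers had 8 of 12 present, a sum of 77.3 to 85.5 CPM and a median of 1.79 TPM, led by Tcf4 (8.03 TPM) and Itgax (4.81 TPM), which encodes CD11c, with Zbtb46 (0.306 TPM) and Flt3 lowest. T and NK cell markers had 3 of 14 present, Il7r (32.3 TPM), Cd4 (0.891 TPM) and Lck (0.877 TPM), and Cd3e, Cd8a and Ncr1 were not among the genes analysed here. B cell markers had 4 of 11 present, of which Ighm (146, 155 and 133 TPM) and Cd79b (57.0 TPM) stood above Cd22 (2.09 TPM) and Cd79a (1.80 TPM), and Ms4a1 and Pax5 were not analysed here. The B cell list summed to 102 to 110 CPM, and the T and NK list to 44.4 to 47.0 CPM.

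Mast cell, basophil and eosinophil markers had 3 of 11 present and 2.91 to 5.70 CPM in sum, from Ccr3, Kit (0.493 TPM) and Gata2 (0.238 TPM). Erythroid and megakaryocyte markers had 4 of 12 present, and 82.7 to 85.2 CPM in sum came almost all from Pf4, with Gp9 (3.43 TPM), Ppbp (1.71 TPM) and Itga2b (0.315 TPM) low. Stromal, endothelial and fibroblast markers had 9 of 16 present and 29.9 to 32.1 CPM in sum, led by Acta2 (8.99 TPM), Kitl (5.26 TPM) and Kdr (5.01 TPM), while Col1a1 stood at 0.243 TPM and Col1a2 at 0.107 TPM. Osteoclast markers had 9 of 11 present at a median of 20.9 TPM, from Acp5 (31.5 TPM), Nfatc1 (22.7 TPM) and Mmp9 (21.7 TPM) to Ocstamp (0.652 TPM) and Dcstamp (0.583 TPM), the fusion protein.

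On the length-scaled measure, the 4 macrophage markers summed to a mean of 67098 TPM, of which Lyz2 gave 61254 TPM. The highest sum among these other lists was 419 TPM, for the granulocyte and precursor markers. The part of any other cells in the levels above was not tested.

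The 3 libraries were close to each other. Across all genes, log2 values with 0.5 CPM added correlated at 0.992 between replicates 1 and 2, 0.991 between 1 and 3 and 0.992 between 2 and 3, a description in which the points are genes and not independent replicates. Among 8011 genes at 10 CPM or more, 18, 24 and 16 genes differed by more than 1.5-fold in these pairs, and 0 by more than 2-fold on the log2(CPM + 0.5) scale. The biological coefficient of variation estimated by edgeR was 6.59%. DESeq2's trend at the median count gave 11.9%.

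The spread narrowed with abundance. The median coefficient of variation was 54.2% in genes under 1 CPM, 18.7% from 1 to 10, 6.39% from 10 to 100, 2.84% from 100 to 1000 and 1.58% at 1000 CPM and over. The coefficient expected from counting error alone had medians of 33.3%, 12.04%, 3.99%, 1.71% and 0.626% in the same classes. These are computed from each gene's mean count and are not spreads sampled from 3 libraries, so they are not a like measure.

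The libraries nevertheless differed beyond counting error in many genes. By a chi-square test of the 3 counts of each gene against the library sizes, which compares these libraries and not conditions, 4548 of 13155 genes tested passed an adjusted p of 0.05, or 34.6% (Benjamini-Hochberg). The share was 32.4% under 1 CPM and 65.7% at 1000 CPM and over, where small differences are resolved. Ribosomal protein genes passed in 56 of 87 cases (64.4%), lysosomal genes in 21 of 41 (51.2%), TLRs and partners in 5 of 16 (31.3%) and chemokines in 5 of 21 (23.8%). Of the 4 markers, Lyz2 and Cd68 passed with coefficients of variation of 1.22% and 2.44%, and Adgre1 and Csf1r did not, with 0.766% and 0.791%.

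No library stood alone: the called genes had their highest CPM in replicate 1 in 1613 cases, in replicate 2 in 1349 and in replicate 3 in 1586. Leaving out replicate 1, 2 or 3 left 2077, 2693 or 2521 genes past the test, with 2 libraries in each.

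The largest spread among genes at 10 CPM or more was that of Plcg1, a phospholipase of receptor signalling, with 6.93, 14.1 and 10.1 CPM (135, 276 and 179 counts). Next was Gm23935, a 57-base feature annotated as a microRNA, with 416, 545 and 792 CPM. Lars2, the mitochondrial leucyl-tRNA synthetase, had 236.2, 338 and 412 CPM. The others named by the same rule were Nrxn2, Dis3l2, Arfgef3, Msi2, Pkig and Tubgcp6, with means of 10.3 to 17.7 CPM and with replicate 1, 2 or 3 highest in different genes.

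Gm23935 and Lars2 followed the order of CT010467.1, the ribosomal RNA entry, which had 3225, 3752 and 5005 CPM. In all 3, replicate 1 was lowest and replicate 3 highest. Genes of ribosomal RNA biotype held 0.323%, 0.376% and 0.4997% of the counts in the same order. Nearly all of this is CT010467.1 itself, with a mean of 3994 of their 3995 CPM, so it is not a separate observation. The nuclear RNA gene Malat1, chosen after its values were seen, had 125, 144 and 179 CPM. Mitochondrial ribosomal RNA did not follow, at 0.0832%, 0.0863% and 0.0850%. The part of residual ribosomal RNA or RNA handling in these values was not tested.

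**Figure D4:**
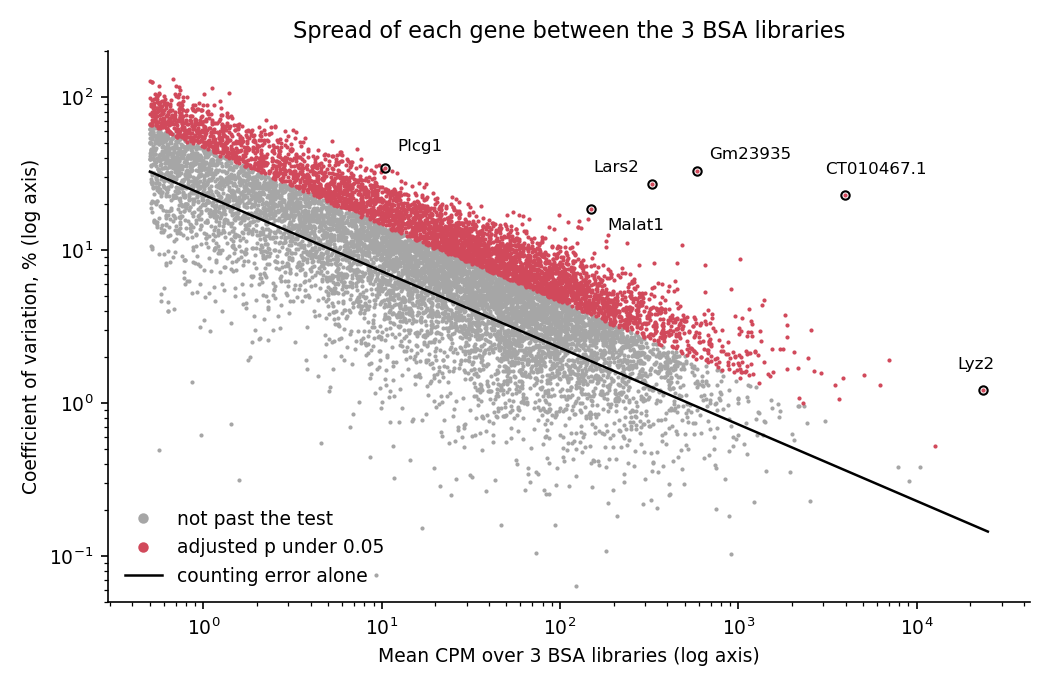
Coefficient of variation of CPM over the 3 BSA libraries against mean CPM, both on log axes, 1 point per gene of at least 0.5 CPM. Red points passed the chi-square test at an adjusted p of 0.05 and the line is the spread that counting error alone gives. Lars2, Gm23935, Malat1 and CT010467.1 stand far above the other genes of their abundance, and Lyz2 has a coefficient of 1.22%.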

How the data were processed

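Total RNA of the macrophages was prepared with an RNeasy kit and sequenced as paired 150-base reads after NEBNext Ultra II library preparation, per the labels' protocols. The authors deposited raw counts per gene for 13593 genes. The submitters' processing notes name STAR, featureCounts, MultiQC and the builds GRCm38 and mm10 without versions. The strand setting and the rule of the filter on low genes are not given in the sources used here, so a gene that was not analysed here cannot be called silent. Symbols came from the table for 12250 genes and from GENCODE M21 for 1333, and 10 kept an identifier only. No column of values was left unmatched.

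From the 3 BSA columns, CPM was computed with TMM-scaled library sizes (edgeR 4.0.16, R 4.3.3; factors 0.998 to 1.00). TPM used the union of exons in GENCODE M21. It was given to genes of at least 200 exon bases, a minimum chosen after seeing the data that left out 48 genes, and another 13 had no length. Log2 values used a pseudocount of 0.5 CPM. The chi-square test (2 degrees of freedom, expected count of at least 5, Benjamini-Hochberg adjustment) compares libraries and has no biological contrast. Counts were also simulated from the real means and library sizes with counting error alone, for 13114 genes tested. Of genes changed in 1 library, the test called 41.8% of those changed 1.2-fold, 74.6% of those changed 1.5-fold and 80.3% of those changed 2-fold. It called 0.0697% of unchanged genes. The simulation held no further spread between libraries, so these are not the rates of the test on the real counts. Depth was 17684435 to 19599955 counts per library. Reads carry no molecular identifiers, so counting error is a lower limit of the error. No pair of libraries differed by less than counting error (chi-square per degree of freedom 3.92 to 5.18), so none was counted as 1 sample.

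The 48 gene lists (1260 members) and the test were chosen with earlier results of these data known. Named are the 25 highest genes by CPM and by TPM, the 4 markers, the 6 highest and 2 lowest of each list with more of the receptor, sensor and cytokine lists, the 10 genes of largest log2 spread at 10 CPM or more, and Cx3cr1, Ccr1, Ccr2 and Ccr3. Any other gene is marked in the text as picked afterwards. A few genes that the rule names are not reported here. Present means that a gene is in the table. The table covers all 9 libraries and its filter rule is not given, so a gene may be in it through the chemokine groups. The word therefore does not mean counted in the BSA libraries: 7 genes of the table had no count in any of them. Alternatives were total counts and DESeq2 1.42.0 size factors, a count minimum, longest-transcript lengths, totals without mitochondrial genes, other thresholds and pseudocounts, and leaving out each library. Totals without ribosomal RNA genes and no length minimum were added after seeing the data. Promoters are RefSeq's. Figures used matplotlib 3.10.9 (Python 3.11.15).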

Additional observations from a re-analysis of the deposited data

How the results depend on the processing

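No paired analysis was possible because the libraries form a single group and no result comes from a test between groups. Leaving mitochondrially encoded genes out of the total gave 8.75% of counts in the 10 most counted genes and 22.5% in the 100 most counted, against 8.99% and 22.8%. Leaving out ribosomal RNA genes gave 22.6% for the 100. As a share of TPM, mitochondrially encoded genes held 2.94% and ribosomal protein genes 7.47%, against 1.17% and 3.84% of counts; by construction this share divides by length. The spread from DESeq2's trend was 11.9%, against 6.59% from edgeR; the estimates are built differently, and the cause was not tested. A threshold of 0.01 left 2589 genes past the chi-square test, against 4548 at 0.05, and 5721 passed at 0.1. Leaving out each library in turn, 2077 to 2693 genes passed with 2 libraries compared, and the biological coefficient of variation ran from 5.92% to 7.28%. Over the same omissions the median SD of log2 CPM was 0.0909 to 0.0992, against 0.119. The former are SDs of 2 libraries and the latter of 3, so they are not a like measure. With a library left out, the genes at 1 CPM or more numbered 11337 to 11390 and those at 1000 TPM or more 137 to 139. The genes holding 50% of the counts numbered 679.5 to 681.5. The 10 most counted genes held 8.95% to 9.02%, the 100 most counted 22.77% to 22.82%, mitochondrially encoded genes 1.16% to 1.18% and ribosomal protein genes 3.81% to 3.88%. Total counts as library sizes and DESeq2 size factors left the number of genes past the test at 4541 and 4544. Lengths of the longest transcript moved the medians of 36 of 48 lists, by a factor of 0.762 to 1.33, and leaving out a library moved 7 of 144 list medians beyond their spread. Low genes are limited by depth: under 1 CPM the median coefficient of variation was 54.2%, so the order of genes there is not resolved.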
